A study of Caenorhabditis elegans with 6 samples.

Results

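The nuclear hormone receptor genes of Caenorhabditis elegans were compared between starved first-stage (L1) larvae carrying lin-35(n745) and wild type larvae. A gene was taken as a member when a probe set of the array carried a gene symbol of the form nhr- followed by a number and no other symbol, and the probe set with the highest mean over all 6 arrays stood for the gene. This gave 254 genes on 293 probe sets, out of 17118 genes on the array with a symbol of their own. Of the 254, RefSeq (WBcel235) lists 243 as protein-coding and 11 as pseudogenes, and another 26 protein-coding nhr- genes were not analysed here. All 254 were tested, with no filter on low values.

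The groups were lin-35(n745), carrying a nonsense allele of the gene for the worm's only retinoblastoma family protein, and wild type. Larvae of both genotypes hatched from bleached eggs in S-basal buffer lacking cholesterol and food and were kept at 20 °C for 30 h before whole animals were taken for total RNA. Each genotype had 3 arrays, named in the labels as biological replicates. Values are log2 expression values as deposited, so a difference of 1 is 2-fold, and every difference is lin-35(n745) minus wild type.

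Nuclear hormone receptors are transcription factors that bind DNA through a zinc-finger domain, and many change their activity when a small lipid-like molecule binds a second, carboxy-terminal domain. The family is far larger in nematodes than in insects or vertebrates, mainly through duplication of genes related to the vertebrate receptor HNF4, and a small set of members has clear counterparts across animals. In the worm, members whose function is known act in fat metabolism, sterol handling, moulting and the response to fasting, and most of the expanded set has no assigned role.

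The arrays had medians between 5.91 and 6.11. The first component of all tested probe sets held 59.1% of the variance. The difference between 3' and 5' actin control probe sets, a sign of RNA or cRNA integrity, was 2.31, 0.41 and 1.23 in the lin-35(n745) arrays, against 0.53, 0.70 and 0.78 in the wild type arrays, and the same difference for catalase was 3.73, 1.18 and 1.55 against 1.46, 1.45 and 1.62. Mutant replicate 1 therefore stood apart on both, and the counts of called genes in the family and in the receptor and pathway lists, but not those of tissue markers, were also taken without each array. The lin-35 probe set averaged 7.42 ± 0.25 in lin-35(n745) and 7.36 ± 0.19 in wild type (SD, n = 3 each). Since n745 is a point mutation, this reading does not check the labels. Whole larvae were used, so fewer cells of a type and less RNA per cell cannot be told apart in any result.

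Of the 254 receptor genes, 28 (11.02%) passed the test: their adjusted p was below 0.05 in limma, with the Benjamini-Hochberg method applied across the whole array. The background share over all genes was 11.8%, so the family as a whole was called about as often as the rest of the array. Receptor genes were called higher in lin-35(n745) in 8 cases (3.15%, background 5.71%) and lower in 20 cases (7.87%, background 6.12%). Calls of at least 2-fold numbered 18 (7.09%, background 8.13%), of which 6 were higher and 12 lower. In 76 genes (29.9%, background 31.3%) the 3 lin-35(n745) arrays and the 3 wild type arrays did not overlap, and these comprised 27 with higher and 49 with lower values in the mutant. All 28 called genes were among them.

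The 254 differences were centred close to 0. Their median was −0.012, beside −0.038 over all genes, with quartiles of −0.29 and 0.21 for the receptors and −0.30 and 0.21 for all genes. The difference was above 0 in 124 members and below 0 in 130. Among the receptors' calls 71.4% were lower, beside 51.7% of the calls over all genes. Without mutant replicate 3 the receptors' calls were 11 higher and 12 lower, beside 773 higher and 474 lower (38.0% lower) over all genes. With mutant replicates 1 and 3 both left out they were 5 higher and 3 lower, beside 465 higher and 157 lower (25.2% lower) over all genes. With arrays centred on their medians they were 9 higher and 30 lower, beside 984 higher and 1735 lower over all genes. Without wild type replicate 1 the receptors' calls were 3 higher and 10 lower, and without wild type replicate 2 or 3 they were 5 higher and 11 lower. Over all genes the same settings gave 513 higher and 287 lower, 672 higher and 423 lower, and 755 higher and 654 lower, so lower calls made up 35.9%, 38.6% and 46.4% of the array's calls. In each of these settings lower calls made up a larger share of the receptors' calls than of the array's, and the difference between those shares was not tested.

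Of the 226 genes that did not pass, 36 had an unadjusted p below 0.05. The 95% interval of the difference lay within 1 log2 unit of 0 in 180 of the 226 and reached beyond it in 46, so for those 46 a 2-fold difference was not excluded by the interval. Replicates scattered somewhat more in the mutant: the median SD over the members was 0.23 in lin-35(n745) and 0.18 in wild type, beside 0.26 and 0.19 over all genes. Of the 11 pseudogene members, limma called 0, and 2 had an unadjusted p below 0.05.

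**Figure D1:**
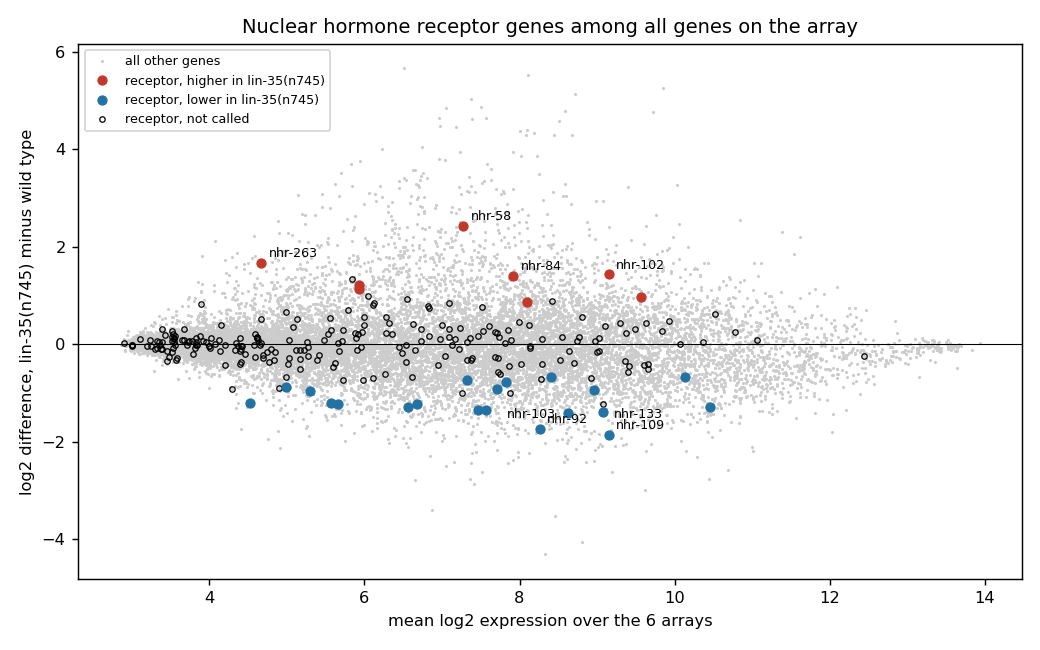
Each point is a gene, placed by its mean log2 expression value over all 6 arrays (x axis) and its log2 difference, lin-35(n745) minus wild type (y axis). Small grey points are all other genes of the array, filled points are the 8 receptor genes called higher and the 20 called lower, and open circles are receptor genes that were not called. The called receptor genes have mean values between 4.52 and 10.5, and nhr-58 has the largest difference at 2.43.

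The calls were spread over readings of very different brightness, which ranged from 2.90 to 12.4 over the members. Probe sets differ in how well they bind, so these readings do not rank the genes by transcript number. When all genes of the array were divided by brightness into 4 equal parts at 4.31, 6.05 and 8.19, the parts held 62, 77, 69 and 46 receptor genes. limma called 0 of the 62 in the dimmest part, where 3 had an unadjusted p below 0.05, and it called 8 of 77 (10.4%), 10 of 69 (14.5%) and 10 of 46 (21.7%) in the others. The same shares over all genes were 0.37%, 7.90%, 19.7% and 19.3%. The members sat on somewhat dimmer probe sets than the array as a whole, with a median of 5.86 beside 6.05.

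The largest difference in the family was that of nhr-58. It read 8.64, 8.39 and 8.43 in lin-35(n745) larvae, against 5.97, 6.31 and 5.91 in wild type larvae, and the difference was 2.43 (SE 0.17, adjusted p = 0.00052). Every mutant array exceeded every wild type array by more than 2 log2 units. nhr-58 and 3 others, nhr-84, nhr-109 and nhr-92, passed the test under every alternative that measured them.

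nhr-102 and nhr-84, which lie next to each other in the genome, were both higher in the mutant. nhr-102 read 9.94, 9.84 and 9.85 in lin-35(n745) larvae, against 8.52, 8.24 and 8.56 in wild type larvae, a difference of 1.43 (SE 0.15, adjusted p = 0.00225). nhr-84 read 8.79, 8.76 and 8.31 in lin-35(n745) larvae, against 7.33, 7.07 and 7.25 in wild type larvae, a difference of 1.40 (SE 0.18, adjusted p = 0.00482). In both genes the 3 mutant arrays lay close together and clear of wild type, and both calls held whichever array was left out.

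nhr-45, which acts in the worm's response to mitochondrial stress and toxins, was also higher. It read 10.12, 9.94 and 10.09 in lin-35(n745) larvae, against 9.02, 8.99 and 9.23 in wild type larvae, and the difference was 0.97 (SE 0.15, adjusted p = 0.00857). nhr-243 read 8.79, 8.52 and 8.26 in lin-35(n745) larvae, against 7.67, 7.76 and 7.56 in wild type larvae, a difference of 0.86 (SE 0.18, adjusted p = 0.0249). Neither overlapped between genotypes. The call of nhr-45 was lost without wild type replicate 1 alone (adjusted p = 0.0506), and that of nhr-243 without mutant replicate 2 or any 1 of the wild type arrays (0.0559 to 0.0943).

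The remaining 3 higher calls came from dimmer or more scattered readings. nhr-112 read 6.61, 6.87 and 6.11 in lin-35(n745) larvae, against 5.22, 5.43 and 5.31 in wild type larvae, a difference of 1.21 (SE 0.22, adjusted p = 0.0148), and both of its probe sets were called. nhr-203 read 6.95, 6.51 and 6.02 in lin-35(n745) larvae, against 5.20, 5.60 and 5.27 in wild type larvae, a difference of 1.14 (SE 0.25, adjusted p = 0.032). nhr-263 read 5.30, 6.46 and 4.75 in lin-35(n745) larvae, against 3.71, 3.95 and 3.84 in wild type larvae, a difference of 1.67 (SE 0.40, adjusted p = 0.0402). Mutant replicate 2 of nhr-263 stood more than 1 log2 unit above the other mutant arrays, while the wild type arrays lay close together. Without wild type replicate 1 nhr-112 was not called (adjusted p = 0.0680). nhr-203 was not called without mutant replicate 1 or 2 or any 1 wild type array (0.0535 to 0.119), nor nhr-263 without mutant replicate 1 or any 1 wild type array (0.0654 to 0.126).

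**Figure D2:**
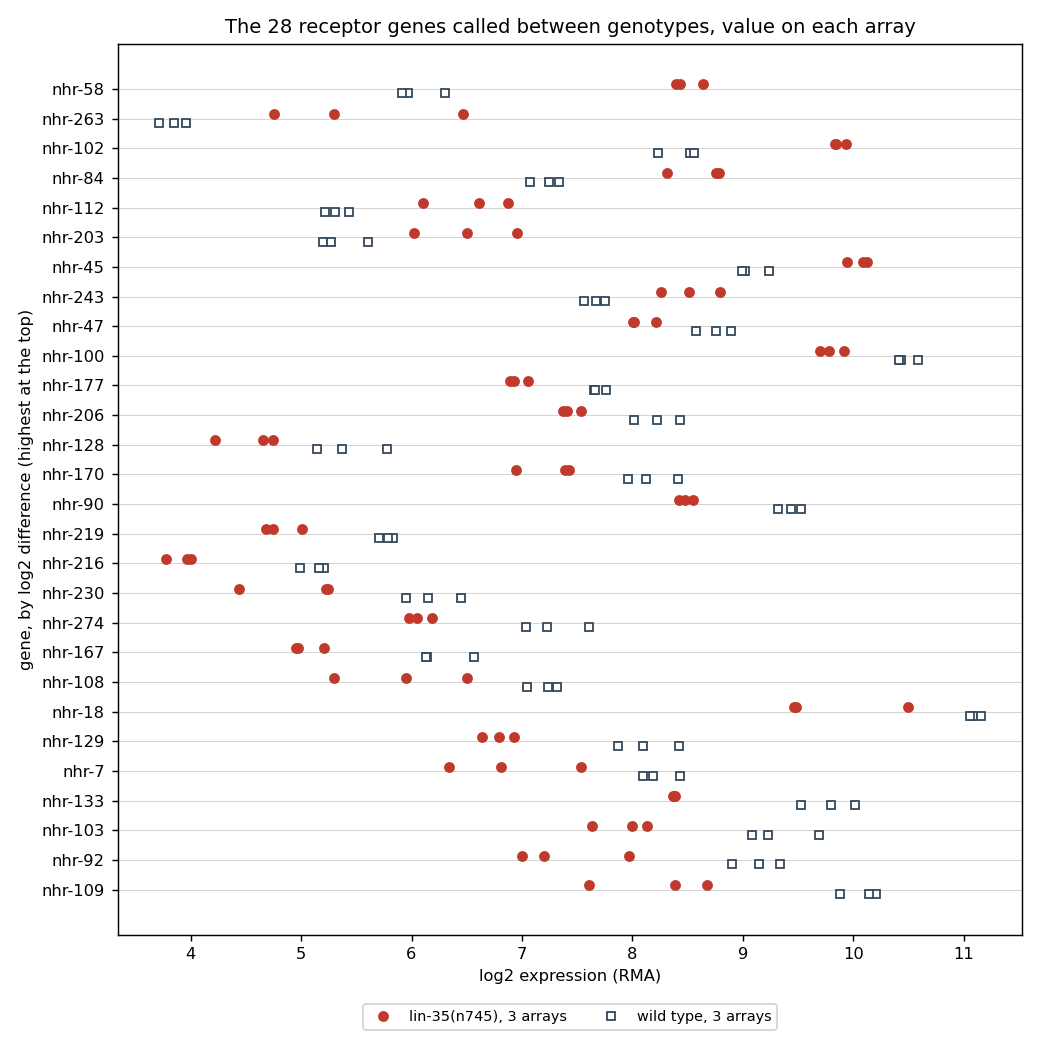
Log2 expression values (x axis) of the 28 called receptor genes, 1 gene per row ordered by difference, with filled circles for the 3 lin-35(n745) arrays and open squares for the 3 wild type arrays. The top 8 rows are the genes called higher, with nhr-58 first, the bottom 20 are those called lower, with nhr-109 last, and in no row do the genotypes overlap.

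Among the 20 lower genes nhr-109 had the largest difference. It read 8.68, 8.38 and 7.60 in lin-35(n745) larvae, against 10.20, 10.14 and 9.88 in wild type larvae, a difference of −1.85 (SE 0.28, adjusted p = 0.00838). nhr-92 read 7.97, 7.20 and 7.0 in lin-35(n745) larvae, against 8.90, 9.34 and 9.15 in wild type larvae, a difference of −1.74 (SE 0.27, adjusted p = 0.00956). In both genes the mutant arrays were spread over about 1 log2 unit, with replicate 1 the highest, and all of them lay below wild type. nhr-92 is read by a probe set that can match several transcripts of related sequence.

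Other lower genes were tighter within genotypes. nhr-133 read 8.38, 8.39 and 8.37 in lin-35(n745) larvae, against 9.79, 10.02 and 9.52 in wild type larvae, a difference of −1.40 (SE 0.17, adjusted p = 0.00347). The mutant arrays of nhr-133 were nearly identical. nhr-129 read 6.64, 6.93 and 6.79 in lin-35(n745) larvae, against 7.87, 8.42 and 8.10 in wild type larvae, a difference of −1.34 (SE 0.19, adjusted p = 0.00611). nhr-90 read 8.54, 8.47 and 8.42 in lin-35(n745) larvae, against 9.32, 9.53 and 9.44 in wild type larvae, a difference of −0.95 (SE 0.14, adjusted p = 0.00777). Both kept the order of the genotypes in every array and held whichever array was left out, as did nhr-133.

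A further group of lower genes had dim to middling readings. nhr-274 read 6.18, 6.05 and 5.97 in lin-35(n745) larvae, against 7.04, 7.22 and 7.60 in wild type larvae, a difference of −1.22 (SE 0.18, adjusted p = 0.00834). nhr-167 read 4.95, 5.21 and 4.97 in lin-35(n745) larvae, against 6.14, 6.56 and 6.13 in wild type larvae, a difference of −1.23 (SE 0.18, adjusted p = 0.00726). In both genes the mutant arrays lay well clear of the wild type arrays. nhr-216 read 3.97, 4.01 and 3.78 in lin-35(n745) larvae, against 5.21, 4.99 and 5.17 in wild type larvae, a difference of −1.21 (SE 0.15, adjusted p = 0.00386). nhr-219 read 5.01, 4.69 and 4.74 in lin-35(n745) larvae, against 5.71, 5.83 and 5.79 in wild type larvae, a difference of −0.96 (SE 0.15, adjusted p = 0.00956). These 4 calls held whichever array was left out. The log2 scale of dim probe sets is compressed by the background, and how far this affects these 4 differences was not tested.

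3 lower genes stand in adjacent positions in the genome, nhr-128, nhr-103 and nhr-18. nhr-103 read 8.13, 7.63 and 7.99 in lin-35(n745) larvae, against 9.23, 9.69 and 9.08 in wild type larvae, a difference of −1.41 (SE 0.22, adjusted p = 0.00899), and its call held whichever array was left out. nhr-18 read 10.50, 9.48 and 9.46 in lin-35(n745) larvae, against 11.08, 11.16 and 11.05 in wild type larvae, a difference of −1.29 (SE 0.29, adjusted p = 0.0312). nhr-128 read 4.66, 4.74 and 4.22 in lin-35(n745) larvae, against 5.37, 5.14 and 5.77 in wild type larvae, a difference of −0.89 (SE 0.22, adjusted p = 0.0473). Mutant replicate 1 of nhr-18 lay about 1 log2 unit above the other mutant arrays and still below wild type. The call of nhr-18 was lost without mutant replicate 2 or 3 or any 1 wild type array (adjusted p = 0.0700 to 0.103), and that of nhr-128 whichever of the 6 arrays was left out (0.0610 to 0.129).

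The other 8 lower calls each depended on at least 1 array. nhr-7 read 6.34, 7.54 and 6.81 in lin-35(n745) larvae, against 8.43, 8.18 and 8.10 in wild type larvae, a difference of −1.34 (SE 0.30, adjusted p = 0.0312). nhr-108 read 6.5, 5.95 and 5.30 in lin-35(n745) larvae, against 7.04, 7.23 and 7.32 in wild type larvae, a difference of −1.28 (SE 0.30, adjusted p = 0.0349). Both had mutant arrays that ranged over about 1.2 log2 units, and both probe sets can match several transcripts. nhr-230 read 5.24, 5.23 and 4.44 in lin-35(n745) larvae, against 5.95, 6.45 and 6.15 in wild type larvae, a difference of −1.21 (SE 0.26, adjusted p = 0.0275). Mutant replicate 3 was the lowest array of nhr-230 and nhr-108.

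nhr-170 read 7.42, 7.39 and 6.94 in lin-35(n745) larvae, against 8.42, 7.96 and 8.13 in wild type larvae, a difference of −0.92 (SE 0.20, adjusted p = 0.0288). nhr-206 read 7.53, 7.41 and 7.37 in lin-35(n745) larvae, against 8.43, 8.23 and 8.01 in wild type larvae, a difference of −0.78 (SE 0.16, adjusted p = 0.0246). nhr-177 read 6.89, 7.06 and 6.93 in lin-35(n745) larvae, against 7.65, 7.66 and 7.76 in wild type larvae, a difference of −0.73 (SE 0.14, adjusted p = 0.0179). All 3 differed by less than 2-fold, with no overlap between genotypes. nhr-100 read 9.78, 9.91 and 9.70 in lin-35(n745) larvae, against 10.43, 10.59 and 10.42 in wild type larvae, a difference of −0.68 (SE 0.14, adjusted p = 0.0264). nhr-47 read 8.02, 8.21 and 8.00 in lin-35(n745) larvae, against 8.57, 8.89 and 8.76 in wild type larvae, a difference of −0.67 (SE 0.15, adjusted p = 0.0363). nhr-100 and nhr-47 had the smallest differences of all 28 calls.

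Leaving out arrays ended these 8 calls as follows. With any 1 wild type array left out, nhr-177 (adjusted p = 0.0511 to 0.0783) and nhr-230 (0.0647 to 0.0889) were not called. nhr-7 was lost without mutant replicate 3 or any 1 wild type array (0.0620 to 0.114), and nhr-206 without mutant replicate 2 or 3 or wild type replicate 1 or 2 (0.0581 to 0.106). nhr-170 (0.050 to 0.114) and nhr-108 (0.0578 to 0.101) were lost without mutant replicate 2 or 3 or any 1 wild type array. nhr-100 was lost without mutant replicate 1 or 3 or any 1 wild type array (0.0544 to 0.0988), and nhr-47 whichever of the 6 arrays was left out (0.0515 to 0.107). In all, 13 of the 28 calls held whichever array was left out, 3 higher and 10 lower, and no called gene changed sign in any alternative.

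Among the 20 lower genes the highest mutant array was replicate 1 in 11 and replicate 2 in 9, and it was replicate 3 in 0. The 8 higher genes had the same order, with replicate 1 highest in 6, replicate 2 in 2 and replicate 3 in 0. Over all 254 members the medians of mutant replicates 1, 2 and 3 were 5.99, 5.92 and 5.64, so this order was not particular to the lower genes. Mutant replicate 1 is also the array with the largest 3' to 5' differences. With the actin difference as a covariate the receptors' calls numbered 8 higher and 15 lower, beside 859 higher and 703 lower over all genes. Of the 8 genes called higher at the main setting, 6 were still called, and nhr-243 and nhr-203 were not. The lower calls of nhr-100, nhr-47, nhr-206, nhr-170, nhr-177, nhr-230 and nhr-128 were also lost. The part of RNA integrity in these results was not tested beyond that fit.

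**Figure D3:**
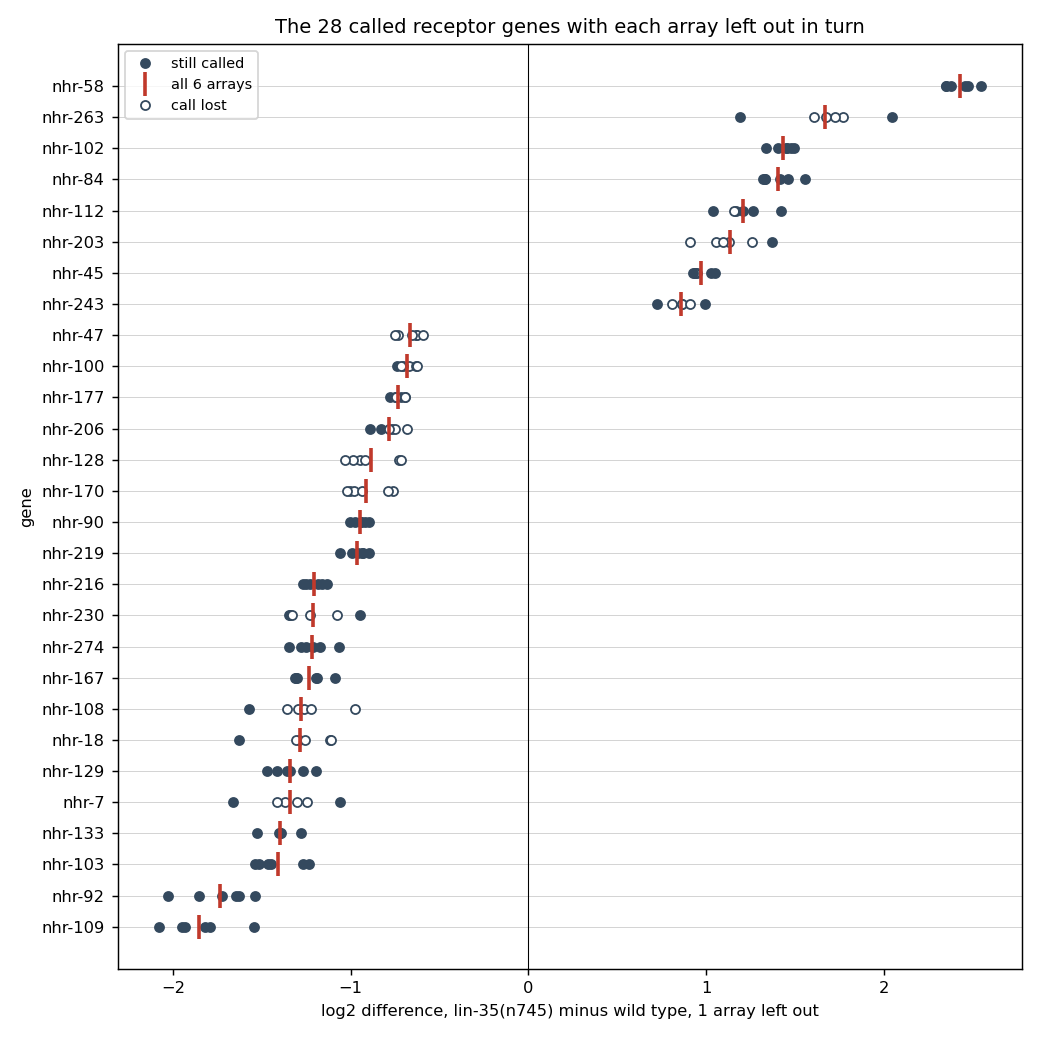
Log2 difference, lin-35(n745) minus wild type (x axis), of the 28 called receptor genes, 1 per row, with each of the 6 arrays left out in turn. The vertical tick is the difference from all 6 arrays, a filled point a fit in which the gene was still called, and an open point a fit in which the call was lost. No point crosses 0, and 13 of the 28 rows have no open point.

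3 genes missed the threshold narrowly, all with lower values in the mutant. nhr-101 read 9.16, 8.30 and 7.95 in lin-35(n745) larvae, against 9.53, 9.56 and 9.97 in wild type larvae, a difference of −1.22 (SE 0.32, adjusted p = 0.0514). nhr-258 read 3.58, 4.13 and 3.78 in lin-35(n745) larvae, against 5.14, 4.38 and 4.74 in wild type larvae, a difference of −0.92 (SE 0.24, adjusted p = 0.0514). nhr-106 read 7.28, 6.76 and 6.22 in lin-35(n745) larvae, against 7.85, 7.77 and 7.64 in wild type larvae, a difference of −1.0 (SE 0.27, adjusted p = 0.0556). None of the 3 overlapped between genotypes. Without mutant replicate 1, nhr-101 (adjusted p = 0.00973) and nhr-106 (0.0172) passed, and without wild type replicate 2 nhr-258 did (0.0485).

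Of the 254 members, 33 had more than 1 probe set with no other symbol. All of these probe sets were called in 3 of them (nhr-112, nhr-47 and nhr-92), some in 5 and none in 25, and no gene had calls in opposite directions. Probe sets shared with another symbol were not counted. The probe set shared by nhr-287 and nhr-92 was not called (−0.17, adjusted p = 0.539), nor was that shared by nhr-231 and nhr-170 (−0.41, adjusted p = 0.238). The differences of a gene's probe sets had the same sign in 22 genes and not in 11. nhr-45, nhr-109 and nhr-230 each had 1 of 2 probe sets called. For nhr-97 the brighter probe set was not called (0.24, adjusted p = 0.449) while a dimmer one was (1.49, adjusted p = 0.0116). For nhr-88 the brightest of 4 was not called (−0.25, adjusted p = 0.604) while another was (−1.08, adjusted p = 0.0291). In 26 members, 5 of them called (nhr-102, nhr-92, nhr-7, nhr-108 and nhr-47), the probe set can match several transcripts, so related receptors may contribute to those readings.

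Of the 5 receptor genes with the brightest readings, only nhr-18 was called. nhr-88 read 12.72, 11.82 and 12.43 in lin-35(n745) larvae, against 12.55, 12.52 and 12.64 in wild type larvae, a difference of −0.25 (SE 0.24, adjusted p = 0.604). nhr-34 read 11.50, 10.62 and 10.59 in lin-35(n745) larvae, against 10.48, 10.80 and 10.65 in wild type larvae, a difference of 0.26 (SE 0.26, adjusted p = 0.633). In both genes mutant replicate 1 was the highest array of its genotype. nhr-3 read 10.95, 10.79 and 10.75 in lin-35(n745) larvae, against 10.05, 10.06 and 10.51 in wild type larvae, a difference of 0.63 (SE 0.18, adjusted p = 0.0642), with no overlap between genotypes but an adjusted p above the threshold. The other 2 of the 5 brightest were nhr-49, given with the receptors of fat metabolism, and nhr-18.

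Of 25 receptors chosen for a known role or for conservation, 24 were measured as members, and limma called 0 of them, where the background share is 11.8%. The other, nhr-62, which acts in the longer life of worms under dietary restriction, is on a probe set that lists its symbol for more than 1 gene identifier, and that probe set was called, with a difference of 1.68 (SE 0.20, adjusted p = 0.00309). Unadjusted p was below 0.05 in 3, nhr-23, nhr-40 and nhr-80, which were also those without overlap between genotypes. The 24 differences ranged from −0.56 to 0.55 and the smallest adjusted p was 0.149. In 18 of the 24 the 95% interval lay within 1 log2 unit of 0. The list was chosen with earlier results of these data known and does not hold every receptor with a known role. nhr-45, whose role was given above and which was called higher, was not on it.

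None of the listed receptors of fat metabolism passed the test. nhr-49, which turns on fatty acid desaturation and oxidation genes and is needed in the response to fasting, read 11.40, 10.90 and 11.01 in lin-35(n745) larvae, against 11.12, 10.84 and 11.08 in wild type larvae, a difference of 0.09 (SE 0.19, adjusted p = 0.841). Its interval was −0.35 to 0.53. nhr-80, a partner of NHR-49 in fatty acid desaturase control, averaged 7.44 ± 0.39 in lin-35(n745) and 8.00 ± 0.22 in wild type (SD, n = 3 each), a difference of −0.56 (SE 0.23, adjusted p = 0.174). nhr-66 (−0.15) and nhr-13 (0.12), also partners of NHR-49, had differences with adjusted p of 0.831 and 0.790. nhr-76, which acts in serotonin-driven fat loss, and nhr-64, linked to fat storage, had differences of −0.06 and −0.45 (adjusted p = 0.939 and 0.245). A dimmer probe set of nhr-76 had a difference of −0.43 (adjusted p = 0.111), with no overlap between genotypes.

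Receptors that act in moulting and in the epidermis had differences above 0 that did not pass. nhr-23, related to vertebrate ROR receptors and required for moulting, read 6.46, 6.58 and 5.76 in lin-35(n745) larvae, against 5.74, 5.70 and 5.69 in wild type larvae, a difference of 0.55 (SE 0.23, adjusted p = 0.181). Its mutant replicate 3 was close to wild type, and without that array the difference was 0.81 (adjusted p = 0.0279). A dimmer probe set of nhr-23 had a difference of 0.24 (adjusted p = 0.635). On that probe set the genotypes overlapped and mutant replicate 3 was the highest array, at 5.42. nhr-25, related to the fly receptor FTZ-F1, averaged 9.29 ± 0.14 in lin-35(n745) and 8.92 ± 0.46 in wild type (SD, n = 3 each), a difference of 0.38 (SE 0.24, adjusted p = 0.401). nhr-85, related to fly E75 and vertebrate Rev-erb receptors, averaged 4.68 ± 0.063 in lin-35(n745) and 4.55 ± 0.18 in wild type (SD, n = 3 each), a difference of 0.13 (SE 0.15, adjusted p = 0.692).

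nhr-8, which acts in cholesterol balance and resistance to toxins, averaged 8.62 ± 0.39 in lin-35(n745) and 8.47 ± 0.12 in wild type (SD, n = 3 each), a difference of 0.15 (SE 0.22, adjusted p = 0.751). nhr-48, of the same subfamily as nhr-8 and daf-12, had a difference of 0.25 (adjusted p = 0.698). nhr-10 and nhr-68, which switch on the alternative route of propionate breakdown, had differences of 0.037 and −0.26 (adjusted p = 0.962 and 0.708). None of these 4 came near the threshold on the probe set that stood for the gene. A dimmer probe set of nhr-10 had a difference of −0.45 (adjusted p = 0.123), with no overlap between genotypes. nhr-114, which acts in methionine and vitamin B12 dependent metabolism, had a difference of −0.13 (adjusted p = 0.709), and nhr-86, which senses a bacterial metabolite in the intestine, one of 0.28 (adjusted p = 0.527).

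Among the developmental receptors, nhr-6 and nhr-2 varied widely between replicates. nhr-6, the worm's NR4A receptor, needed for the spermatheca, read 7.83, 8.36 and 8.75 in lin-35(n745) larvae, against 6.83, 9.17 and 7.77 in wild type larvae, a difference of 0.39 (SE 0.56, adjusted p = 0.751). nhr-2, first described as a zygotic gene of the early embryo, read 4.5, 6.66 and 5.76 in lin-35(n745) larvae, against 6.51, 4.63 and 5.15 in wild type larvae, a difference of 0.21 (SE 0.64, adjusted p = 0.895). The genotypes overlapped widely in both genes, and the 95% intervals, −0.92 to 1.70 for nhr-6 and −1.28 to 1.71 for nhr-2, include a 2-fold difference. nhr-67, the tailless-type receptor, averaged 5.87 ± 0.57 in lin-35(n745) and 5.58 ± 0.36 in wild type (SD, n = 3 each), a difference of 0.29 (SE 0.32, adjusted p = 0.66). nhr-91, related to GCNF, averaged 6.73 ± 0.41 in lin-35(n745) and 7.15 ± 0.17 in wild type (SD, n = 3 each), a difference of −0.42 (SE 0.23, adjusted p = 0.315). nhr-40, needed for muscle and movement in development, averaged 10.17 ± 0.29 in lin-35(n745) and 9.69 ± 0.10 in wild type (SD, n = 3 each), a difference of 0.48 (SE 0.18, adjusted p = 0.149). A dimmer probe set of nhr-40 had the opposite sign (−0.19, adjusted p = 0.829), and its genotypes overlapped. The others, nhr-41, nhr-28, nhr-69 and nhr-1, had differences of −0.04, −0.02, 0.078 and 0.0042.

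**Figure D4:**
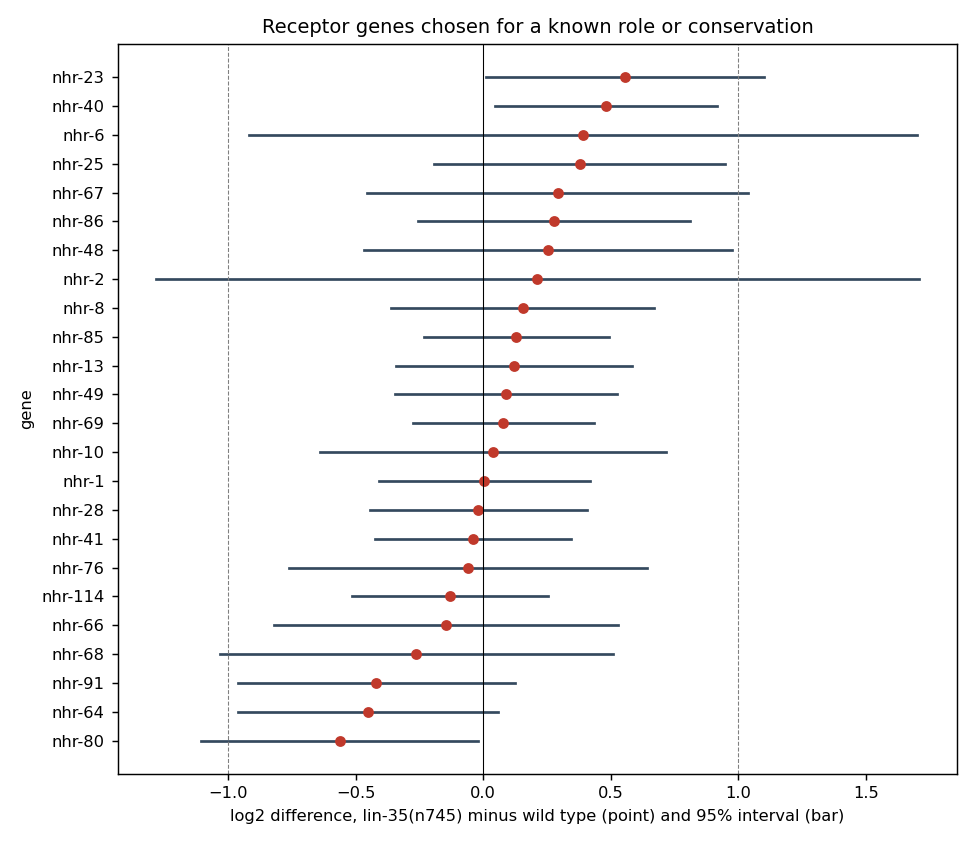
Log2 difference, lin-35(n745) minus wild type (x axis, points), with its 95% interval (bars) for the 24 receptor genes chosen for a known role or conservation, 1 per row, and dashed lines at a 2-fold difference. All 24 differences lie between −0.56 and 0.55, and the intervals of nhr-6 and nhr-2 are the widest.

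Receptor genes often lie in runs along a chromosome. Counting consecutive protein-coding genes in the WBcel235 annotation, 106 members fell in 33 runs of 2 to 9 members, and 148 did not. A protein-coding receptor gene that was not a member broke a run, and pseudogene members could not be in a run. The 148 may therefore include members that lie beside other receptor genes. The test called 14 of the 106 (13.2%) and 14 of the 148 (9.46%), beside the 11.8% background, and the difference between these shares was not tested. Only 2 runs held more than 1 call. In the run nhr-56, nhr-128, nhr-103, nhr-18, nhr-126, nhr-134 and nhr-96, the 3 consecutive genes nhr-128, nhr-103 and nhr-18 were lower, with differences of −0.89, −1.41 and −1.29, while the other 4 ranged from −0.45 to 0.06. The pair nhr-102 and nhr-84 were both higher, with differences of 1.43 and 1.40. In other runs called genes sat beside uncalled ones: nhr-58 (2.43) beside nhr-132 (0.17), nhr-92 (−1.74) beside nhr-122 (−0.34), and nhr-133 (−1.40) beside nhr-184 (−0.69). The longest run, of 9 genes, had differences between −0.28 and 0.32.

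**Figure D5:**
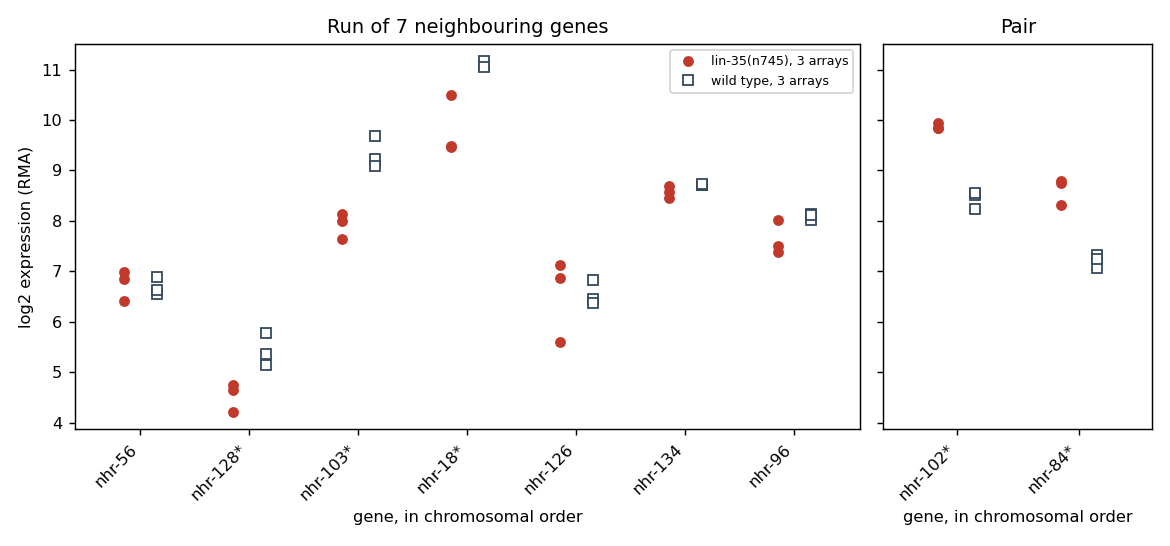
Log2 expression values (y axis) in the 3 lin-35(n745) arrays (filled circles) and the 3 wild type arrays (open squares) for the receptor genes of the 2 runs with more than 1 call, in chromosomal order (x axis), with called genes marked by a star. In the run of 7 the mutant arrays lie below wild type in nhr-128, nhr-103 and nhr-18, and in the pair they lie above wild type in nhr-102 and nhr-84.

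The nuclear receptor genes that carry other names gave no calls: limma called 0 of 5, and 0 had an unadjusted p below 0.05. daf-12, the receptor of the steroid-like dafachronic acids, averaged 10.56 ± 0.067 in lin-35(n745) and 10.06 ± 0.60 in wild type (SD, n = 3 each), a difference of 0.50 (SE 0.29, adjusted p = 0.341), with wild type replicate 2 the lowest array at 9.39. unc-55, odr-7, fax-1 and sex-1, which act in neurons and in sex determination, had differences of 0.10, 0.04, −0.081 and −0.11. Of the 9 receptors conserved across animals limma called 0, and 1, nhr-23, had an unadjusted p below 0.05.

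Lists of genes that act with the receptors were counted against the same background of 11.8% called, 5.71% higher and 6.12% lower. Of 15 genes measured on the dafachronic acid and sterol list, 1 was called and higher and 0 lower (6.67% called). Their median difference was 0.23. The list also held the TGF-β dauer signalling genes daf-7, daf-1, daf-4, daf-3 and daf-5, and din-1, which was counted among the receptor coregulators as well. The share and the median are therefore those of a mixed list. The called gene was strm-1, a sterol methyltransferase that lowers the supply of dafachronic acid precursors. It read 8.36, 8.24 and 8.06 in lin-35(n745) larvae, against 4.89, 5.13 and 4.51 in wild type larvae, a difference of 3.37 (SE 0.20, adjusted p = 0.000262). daf-9, the enzyme of the last step of dafachronic acid synthesis, had a difference of −0.11 (adjusted p = 0.855).

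Of 23 genes regulated by NHR-49 or acting in fatty acid metabolism, 2 were higher and 2 lower (17.4% called), with a median difference of 0.10. icl-1, which encodes the glyoxylate cycle enzyme isocitrate lyase and malate synthase, read 10.80, 12.12 and 12.08 in lin-35(n745) larvae, against 8.59, 8.31 and 8.30 in wild type larvae, a difference of 3.27 (SE 0.35, adjusted p = 0.00237). acox-1.1, a peroxisomal acyl-CoA oxidase, averaged 7.35 ± 0.59 in lin-35(n745) and 5.51 ± 0.21 in wild type (SD, n = 3 each), a difference of 1.84 (SE 0.30, adjusted p = 0.0105). The desaturases fat-1 and fat-2, which make polyunsaturated fatty acids, had differences of −0.87 (SE 0.17, adjusted p = 0.0194) and −0.63 (SE 0.14, adjusted p = 0.0349). In icl-1 and acox-1.1 mutant replicate 1 was the lowest mutant array. fat-1 was not called without mutant replicate 3 or wild type replicate 1 or 2 (adjusted p = 0.0532 to 0.0846), and fat-2 whichever array was left out (0.0540 to 0.106). The classical NHR-49 target acs-2 read 6.76, 9.56 and 10.39 in lin-35(n745) larvae, against 5.48, 6.31 and 5.56 in wild type larvae, a difference of 3.12 with an adjusted p of 0.0588; it was named after its values were seen.

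Of 23 propionate and methionine cycle genes, 1 was higher and 4 lower (21.7% called), with a median difference of −0.12. metr-1, the vitamin B12 dependent methionine synthase, averaged 6.99 ± 0.23 in lin-35(n745) and 6.01 ± 0.074 in wild type (SD, n = 3 each), a difference of 0.97 (SE 0.17, adjusted p = 0.0123). mmaa-1 and mmab-1, which handle the vitamin B12 cofactor of propionate breakdown, had differences of −0.79 (SE 0.15, adjusted p = 0.0185) and −0.61 (SE 0.14, adjusted p = 0.0318). pmt-2, a phosphoethanolamine methyltransferase, and ahcy-1, the enzyme that removes S-adenosylhomocysteine, had differences of −0.80 (SE 0.15, adjusted p = 0.0177) and −0.63 (SE 0.15, adjusted p = 0.0435). mmab-1 and ahcy-1 lost their calls whichever array was left out (adjusted p = 0.0517 to 0.127 and 0.0537 to 0.147), mmaa-1 and pmt-2 with any 1 wild type array left out (adjusted p = 0.0512 to 0.0774 and 0.0554 to 0.0635), and metr-1 without wild type replicate 1 (0.0600).

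Of 29 moulting genes 1 (3.45%) was called, and higher, with a median difference of 0.43. It was ptr-23, a patched-related gene, with a difference of 0.77 (SE 0.16, adjusted p = 0.0249), which was not called without mutant replicate 1 or 2 or wild type replicate 1 or 2 (adjusted p = 0.0533 to 0.111). Of 17 receptor coregulators 1 (5.88%) was called, the Mediator subunit gene mdt-18, with a difference of −0.61 (SE 0.15, adjusted p = 0.048), and it was lost whichever array was left out (0.0700 to 0.153). mdt-15, the Mediator subunit that NHR-49 works with, had a difference of 0.075.

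Markers of the tissues in which receptors act were called in some groups. Of 9 intestinal markers 3 were higher in the mutant and 0 lower (act-5 1.65, pept-1 1.04 and elt-2 0.98), while vha-6 (−0.62, adjusted p = 0.190) and asp-1 (−0.49, adjusted p = 0.0629) were not called and had lower values in every mutant array, and ifb-2 and mtl-2 had differences of −0.12 and −0.12. The median difference of the 9 was 0.21. The per-array median over them was 10.1 to 10.3 in lin-35(n745) and 8.83 to 9.08 in wild type. It fell on act-5 in the mutant arrays and on ges-1, whose own difference was 0.39, in the wild type arrays. Those medians therefore set different genes against each other and do not measure a shift of the whole list. Of 6 germline markers 4 were higher and 0 lower (syp-1 4.62, glh-1 4.40, pgl-3 3.42 and pgl-1 2.66). nos-2 (−0.38, adjusted p = 0.543) and deps-1 (−0.22, adjusted p = 0.798) were not called and had differences below 0. Per-array medians over the 6 germline markers were 8.57 to 8.89 in lin-35(n745) and 5.15 to 5.80 in wild type. Of 8 hypodermal markers 1 was higher (12.5%), of 6 neuronal markers 1 was lower (16.7%), and of 8 embryo markers 1 was lower (12.5%). The share called was 33.3% of the intestinal and 66.7% of the germline markers. The background share over all genes was 11.8%, so the hypodermal and embryo shares were close to it, and none of these shares was tested. limma called 0 of 5 body muscle markers, 0 of 4 adult markers and 0 of 4 dauer markers, with 1, 0 and 0 below 0.05 unadjusted. The part of these tissue differences in the receptor results was not tested.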

How the data were processed

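RNA from 3 lin-35(n745) and 3 wild type samples was hybridised to a one-colour Affymetrix array, with 6 µg of total RNA labelled per sample per the labels' protocols. The deposited values are on a log2 scale, with RMA named as the tool per the submitters' processing notes. Its version is not given in the sources used here. RMA equalises the arrays' distributions, which hides a shift of all transcripts in a single direction, and compresses the differences of dim probe sets. No detection calls were used, and the number of arrays limits the precision.

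Of 22625 probe sets, 77 controls were left out and 22548 were tested as deposited in R 4.3.3 with a two-sided moderated test, limma 3.58.1's lmFit followed by eBayes, with Benjamini-Hochberg adjustment over all of them. A gene is called, and said to be higher or lower, at an adjusted p below 0.05. Gene symbols are those of the platform's annotation, which may be out of date. All member symbols were found in RefSeq's WBcel235 gene table, which also gave gene types and neighbours. The fit was tested on simulated data.

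Members and lists were chosen with earlier results of these data known. Genes named are every called member, receptors of known role, the 5 brightest members, the 3 uncalled with the smallest adjusted p, members with some but not all probe sets called, and from the other lists the called genes, daf-12, unc-55, odr-7, fax-1, sex-1, daf-9 and mdt-15. Alternatives covered normalization, filters on low means, multiple-match probe sets, the replicate number as a block, eBayes settings, array weights, a floor, a 3' to 5' covariate, leaving out arrays and averaging a gene's probe sets.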

Additional observations from a re-analysis of the deposited data

Results flagged for a closer look

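A probe set outside the members was called higher in lin-35(n745). Its annotation lists the symbol nhr-62 for more than 1 gene identifier, so it had no single symbol and was not a member. nhr-62 is known for its part in the longer life of worms under dietary restriction. The probe set read 7.44, 7.34 and 6.87 in lin-35(n745) larvae, against 5.35, 5.63 and 5.62 in wild type larvae, a difference of 1.68 (SE 0.20, adjusted p = 0.00309 by limma). All 3 mutant arrays lay above all 3 wild type arrays. It was the only call among 14 probe sets that list several symbols including a receptor gene, beside 11.8% called over all genes. The differences of the 14 ranged from −0.41 to 1.68.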

How the results depend on the processing

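The median difference of the receptor genes stayed between −0.098 and 0.036 in all 20 alternatives, and the medians of the other 7 lists moved by less than the spread between replicates. With 8 higher and 20 lower calls at the main setting, array weights gave 14 higher, mutant replicates 1 and 3 left out gave 5 higher and 3 lower, wild type replicate 2 and mutant replicate 1 left out gave 5 higher, and leaving out 1 array gave 3 to 11 higher and 10 to 21 lower. These last settings leave fewer samples, and for array weights the cause was not tested. Whether same-numbered arrays share a batch cannot be decided from 3 arrays per genotype. Deviations of same-numbered arrays correlated at 0.048, 0.083 and 0.073, and no array correlated best with its own number. The replicate block gave 10 higher and 23 lower calls among the receptors, beside 1155 higher and 1286 lower over all genes. Over all genes the calls numbered 978 higher and 1047 lower at the main setting and 984 and 1735 with arrays centred on their medians.

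The log2 differences that changed sign were all of genes that were not called, and the cause was not tested. With array weights they were −0.0031 for nhr-49, 0.018 for nhr-68, −0.0995 for nhr-10, 0.061 for nhr-28, −0.22 for nhr-2, −0.012 for nhr-1 and −0.0036 for unc-55. With mutant replicates 1 and 3 left out they were −0.32 for nhr-48, −0.11 for nhr-49, −0.49 for nhr-10, −0.20 for nhr-1, −0.024 for nhr-34, −0.054 for unc-55, −0.038 for odr-7, 0.45 for sex-1 and −0.29 for mdt-15. With wild type replicate 2 and mutant replicate 1 left out they were −0.030 for nhr-8, −0.032 for nhr-48, −0.15 for nhr-49, −0.38 for nhr-10, 0.031 for nhr-114, 0.17 for nhr-28, −0.18 for nhr-1, 0.20 for fax-1, 0.17 for daf-9 and −0.035 for mdt-15. With the 3' to 5' covariate they were −0.026 for nhr-8, −0.17 for nhr-48, −0.078 for nhr-49, −0.34 for nhr-10, −0.16 for nhr-1, −0.055 for nhr-34, 0.14 for sex-1 and −0.068 for mdt-15. With arrays centred on the median they were −0.049 for nhr-10, −0.0071 for nhr-69, −0.081 for nhr-1, −0.045 for odr-7 and −0.0100 for mdt-15. Averaging the probe sets of each gene gave −0.21 for nhr-10, −0.087 for nhr-1 and 0.032 for sex-1, and cyclic loess gave 0.029 for nhr-28.

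Leaving out 1 array gave ranges of −0.16 to 1.01 for nhr-6, −0.054 to 0.34 for nhr-8, −0.11 to 0.068 for nhr-41, −0.063 to 0.54 for nhr-48, −0.061 to 0.19 for nhr-49, −0.47 to 0.052 for nhr-66, −0.53 to 0.064 for nhr-68, −0.26 to 0.30 for nhr-10, −0.12 to 0.11 for nhr-28, −0.30 to 0.78 for nhr-2, −0.33 to 0.21 for nhr-76, −0.12 to 0.11 for nhr-1, −0.44 to 0.0031 for nhr-88, −0.038 to 0.41 for nhr-34, −0.079 to 0.21 for unc-55, −0.18 to 0.22 for odr-7, −0.30 to 0.087 for fax-1, −0.39 to 0.039 for sex-1, −0.35 to 0.065 for daf-9 and −0.093 to 0.30 for mdt-15. Of the 28 calls, 15 were lost without at least 1 of the arrays.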

Other observations

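Some receptor genes varied widely between replicates of a genotype. The 4 given here were picked after their values were seen, among the members with the widest spread within genotypes. nhr-110 read 7.81, 5.77 and 5.94 in lin-35(n745) larvae, against 4.92, 4.81 and 5.78 in wild type larvae, and its difference of 1.33 had an SE of 0.55 (adjusted p = 0.175). nhr-79 read 9.22, 7.82 and 6.95 in lin-35(n745) larvae, against 7.64, 7.75 and 7.70 in wild type larvae, a difference of 0.30 (SE 0.51, adjusted p = 0.798). Wild type arrays of nhr-79 lay close together while the mutant arrays spanned them on both sides. nhr-21 read 7.99, 9.0 and 9.58 in lin-35(n745) larvae, against 7.43, 8.78 and 7.71 in wild type larvae, a difference of 0.88 (SE 0.48, adjusted p = 0.309). nhr-11 read 5.55, 7.10 and 6.86 in lin-35(n745) larvae, against 6.04, 5.95 and 5.12 in wild type larvae, a difference of 0.80 (SE 0.44, adjusted p = 0.311). Mutant replicate 1 was the highest mutant array in nhr-110 and nhr-79 and the lowest in nhr-21 and nhr-11.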
